A study of Mus musculus with 5 samples.

Results

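The comparison described here sets mouse embryonic fibroblasts that received 3 transcription factors against fibroblasts that received none. All 19084 genes named by a probe were compared, of 19084 in the whole series, on 3 of its 5 single-colour microarrays, on which the RNA carries Cy5. The reference is 1 array of mock-transduced mouse embryonic fibroblasts (MEF). The other side is 2 arrays labelled induced Leydig-like cells (iLC), which are fibroblasts given Dmrt1, Gata4 and Nr5a1 by lentivirus. The remaining 2 arrays are Leydig cells from testes of mice aged 56 days. They entered the model for their spread, and their values are given for only some of the genes named. A gene printed without them may still differ for Leydig cells. Per the labels' protocols, the fibroblasts were grown from embryos of 13.5 days and left with virus for 12 h, and PDGFAA (10 ng/ml) and IGF (50 ng/ml) were in the culture medium. Because all samples share 1 protocol text, the sources used here do not give whether MEF were moved to that medium or for how long iLC were grown. They also do not give the mouse strain or the promoters of the vectors. The labels do not say whether paired arrays are separate cultures or animals, and p-values cover only the spread between these arrays.

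Leydig cells are the androgen-making cells of the testis interstitium. They take up cholesterol and move it into mitochondria, where the first steps of steroid synthesis take place under the control of luteinizing hormone and cyclic AMP. NR5A1, also called steroidogenic factor 1, is a nuclear receptor that activates most genes of that pathway, GATA4 is a zinc finger factor of the gonadal mesenchyme and heart, and DMRT1 is a testis factor best known from Sertoli and germ cells. Embryonic fibroblasts are dividing mesenchymal cells that secrete collagens and other matrix proteins, and their cultures can hold smooth muscle cells, macrophages and other cells of the embryo.

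Median probe intensities were 1144 for MEF and 1157 and 1215 for iLC. The low ends differed more than the medians. The 1st percentile was 83.8 for MEF against -10.1 and 23.7 for iLC, so a low reading cannot be compared closely between arrays. Detection calls were not used here. The MEF 20th percentile over genes was 343.4, and a difference from a reading under it depends on the array's low end. Precision is limited throughout by the number of arrays.

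The labels were checked first on the delivered factors and on marker genes. Nr5a1 read 1265 for MEF and 1509 and 1158 for iLC. Gata4 read 6773 for MEF and 4127 and 3149.6 for iLC. Dmrt1 read 397 for MEF and 333 and 427 for iLC. None of the 3 was higher on both iLC arrays than for MEF, and the part of each transcript that its probe reads was not known, so these probes do not check the labels. The sign for Dmrt1 and for Nr5a1 changed with the scaling. Of 12 fibroblast markers, 11 did not differ by 4-fold on both iLC arrays, and the exception was Postn. Vim, an intermediate filament protein, read 218063 for MEF and 236317 and 189589 for iLC. The summed level of the 12 was 1578000 for MEF and 1132960 and 939019 for iLC. Col1a1, a collagen that defines fibroblasts, read 542, 332 and 484, and its probe was as dim for Leydig cells, at 342 and 323.

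Of the 8 Leydig cell markers with a probe, 4 were at least 4-fold higher on both iLC arrays. These were Hsd3b1, Star, Ptgds and Sult1e1, and only Hsd3b1 passed the test described next. Star read 695 for MEF, 56878 and 73892 for iLC and 1368 and 19703 for Leydig cells, and the spread of the Leydig pair enters that test. Hsd3b1, an enzyme of steroid synthesis, read 829.9 for MEF, 27160.1 and 34513 for iLC and 218338 and 95740.3 for Leydig cells. Cyp17a1, the enzyme that commits the pathway to androgens, read 2344 for MEF and 1382 and 2351 for iLC, against 40614 and 197728 for Leydig cells. Hsd17b3 lay on either side of the MEF array. The Cyp11a1 probe read 509.8 and 451 for Leydig cells, so it says little about that gene, and Insl3 and Lhcgr had no probe under those symbols. Of 6 adrenal cortex markers, 1 was called and 2 passed 4-fold. Mrap, which carries the ACTH receptor to the cell surface, rose from 383 to 12133 and 10236 (log2 difference 4.80 ± 0.46, SE, limma adjusted p = 0.0281). For Leydig cells Mrap read 94209 and 160866, above both iLC arrays, so its rise does not set iLC apart from Leydig cells. Cyp11b1, the adrenal enzyme that completes corticosterone synthesis, read 274.9 for MEF, 13429 and 12026 for iLC and 322 and 1730.2 for Leydig cells, and was not called (5.45 ± 0.90, adjusted p = 0.0692).

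Each gene's difference is the mean of the iLC arrays minus the MEF array on the log2(intensity + 16) scale, and a gene is called where limma's Benjamini-Hochberg adjusted p over all 19084 genes is under 0.05 and both iLC arrays lie on the same side of MEF. The MEF array has no replicate and was assumed to vary as the iLC and Leydig pairs do. By this rule 53 genes (0.278%) were called higher and 54 (0.283%) were called lower for iLC. A second rule, with no test, asks for at least 4-fold on both iLC arrays and an intensity of at least 1000 on the brighter side. It was passed by 214 genes (1.12%) in the higher direction and 244 (1.28%) in the lower. Of the 107 called genes, 106 also passed the fold rule. Both iLC arrays lay above MEF for 6488 genes (34.0%), both below for 8464 (44.4%) and on either side for 4132 (21.7%). The median difference of all genes was -0.11.

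The called genes spanned log2 differences of 2.78 to 8.82 upward, with a median of 4.75, and 2.93 to 4.56 downward, with a median of 3.61. Of the 54 called lower genes, 17 had an iLC reading under the MEF 20th percentile over genes. Of the 53 called higher genes, 16 had a MEF reading under it. The size of these differences depends on the low ends of the arrays. The called counts depended on the arrays and on the scaling: leaving out any 1 of the 4 iLC and Leydig arrays ended all calls, median centring of the arrays gave 142 higher and 238 lower calls, and aligning their low ends gave 6 and 0. Aligning the low ends moved the median of all genes to 0.12 and quantile normalization to 0.05. The fold rule was passed by 197 to 255 higher and by 235 to 271 lower genes under the changes of pseudocount, floor, scaling and averaging of probes. For that reason each gene below is given first by its readings. With 2 arrays against 1, a permutation test cannot give a p below 0.333 for a single gene.

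**Figure D1:**
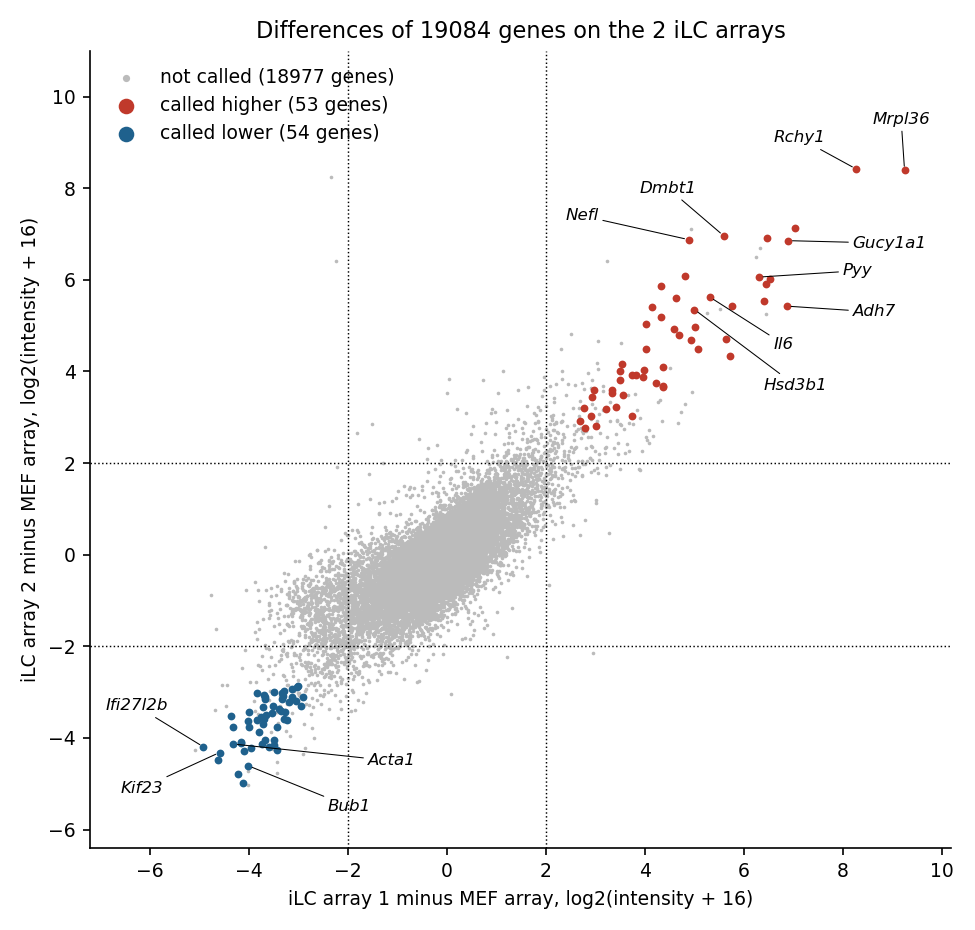
Each point is 1 of 19084 genes, placed by its difference from the MEF array on iLC array 1 (x axis) and on iLC array 2 (y axis), both in log2(intensity + 16) units; red points were called higher (53 genes), blue points lower (54 genes), and dotted lines mark 4-fold. The called genes lie in the 2 corners where both iLC arrays differ from MEF the same way, with Mrpl36 and Rchy1 at the far upper right and Kif23, Bub1 and Ifi27l2b at the lower left.

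**Figure D2:**
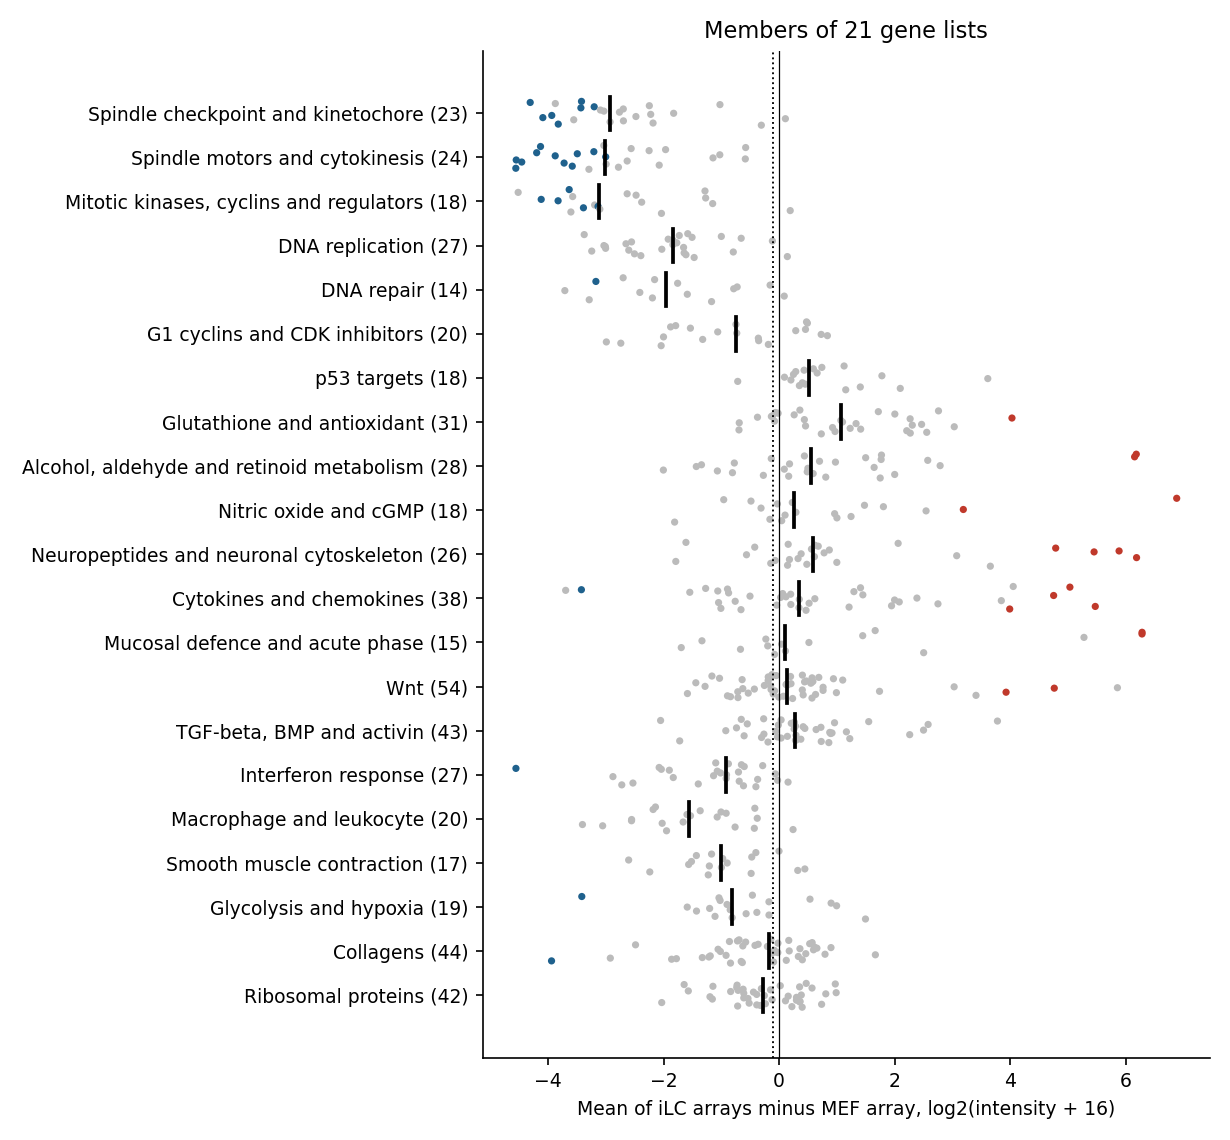
Members of 21 gene lists (number measured in parentheses), each point 1 gene at its mean iLC minus MEF difference in log2(intensity + 16) units, red where called higher, blue where called lower and grey where not called; thick bars are list medians, the solid line is 0 and the dotted line the median of all genes, -0.11. The 3 lists of mitotic genes have medians of -2.93, -3.02 and -3.12. The neuropeptide, cytokine and Wnt lists have medians of 0.58, 0.35 and 0.14 and a few members far to the right.

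Most genes of cell division read lower on both iLC arrays. Across 6 lists of cell division genes, 126 genes in all, both iLC arrays lay below MEF for 113 and above it for 9, and 6 of those 9 are among the G1 cyclins and CDK inhibitors. Of the 126, 24 (19.05%) were called lower and 0 were called higher, and these were 24 of the 54 called lower genes (44.4%). By the fold rule 64 of the 126 (50.8%) were lower and 0 higher. In bulk RNA, fewer dividing cells and less of these transcripts per cell cannot be told apart. Of all genes, by comparison, both iLC arrays lay below MEF for 44.4% and above it for 34.0%. Those called lower were 0.283% and those lower by the fold rule 1.28%, against 0.278% and 1.12% higher. These shares of all genes are the background for each list below.

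Kinetochores attach chromosomes to the spindle, and the checkpoint that reads this attachment delays anaphase. Of 23 genes of this list, 7 were called lower and 18 passed the fold rule, and the list's median was -2.93. Bub1, a checkpoint kinase, read 12237 for MEF, 745 and 486 for iLC and 1163 and 690.2 for Leydig cells (log2 difference -4.31 ± 0.49, adjusted p = 0.0334). Its other probe gave -2.94. Ndc80, the microtubule-binding subunit of the outer kinetochore, read 7399.8 for MEF and 460.5 and 382 for iLC (-4.09 ± 0.51, adjusted p = 0.0396). Both iLC readings lay far under the MEF reading. Knl1, the scaffold that recruits BUB proteins, read 3381 for MEF and 239 and 177 for iLC. Ttk, the kinase that starts the checkpoint, read 5321 for MEF and 313 and 416 for iLC, and its second probe gave -3.25. Bub1b, Sgo1, Cenph and Spc24 passed the fold rule with adjusted p of 0.0519 to 0.0863 and were not called.

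Spindle motors and cytokinesis proteins pull chromosomes apart and split the cell. Of 24 genes of this list, 11 were called lower and 17 passed the fold rule, with a median of -3.02. Kif23, a motor of the central spindle, read 24144 for MEF, 986 and 1194 for iLC and 1641 and 1023 for Leydig cells (-4.46 ± 0.44, adjusted p = 0.0281). Shcbp1, a midbody protein, read 12318 for MEF and 483 and 534 for iLC (-4.56 ± 0.37). The iLC arrays agreed closely for both genes. Kif20b, a kinesin of late cytokinesis, read 11328 for MEF and 637 and 343 for iLC. Hmmr, a spindle assembly factor, read 33609.7 for MEF and 1941 and 1702 for iLC. Prc1, which bundles the midzone microtubules, read 133893 for MEF and 10605 and 11769.6 for iLC (-3.58 ± 0.44, adjusted p = 0.0396). Aspm, Kif15, Kif2c and Spag5, 4 further spindle proteins, were called with differences of -4.13, -3.88, -3.72 and -3.65. Tpx2, Kif4, Anln and Racgap1 passed the fold rule and were not called, with differences of -3.29 to -2.78.

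Mitotic kinases and cyclins drive entry into and passage through mitosis. Of 18 measured genes, 5 were called lower and 14 passed the fold rule, with a median of -3.12. Aurka, the centrosomal Aurora kinase, read 34925 for MEF, 2701 and 2899 for iLC and 1717 and 1356 for Leydig cells (-3.63 ± 0.38, adjusted p = 0.0330). Plk1, the Polo kinase, read 42662 for MEF and 4030.4 and 4094 for iLC (-3.39 ± 0.36, adjusted p = 0.0330). Foxm1, the transcription factor of late cell cycle genes, read 12288 for MEF and 1073 and 675 for iLC. Cdkn3, a phosphatase of CDKs, read 8238 for MEF and 448 and 471 for iLC. Ccna2, Cdc25c, Top2a and Nek2 missed the test with differences of -4.52 to -3.19 and adjusted p of 0.0512 to 0.0706. Fbxo5, an inhibitor of the anaphase-promoting complex, read 12127 for MEF and 915 and 915 for iLC, and was called (-3.70 ± 0.40, adjusted p = 0.0330).

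**Figure D3:**
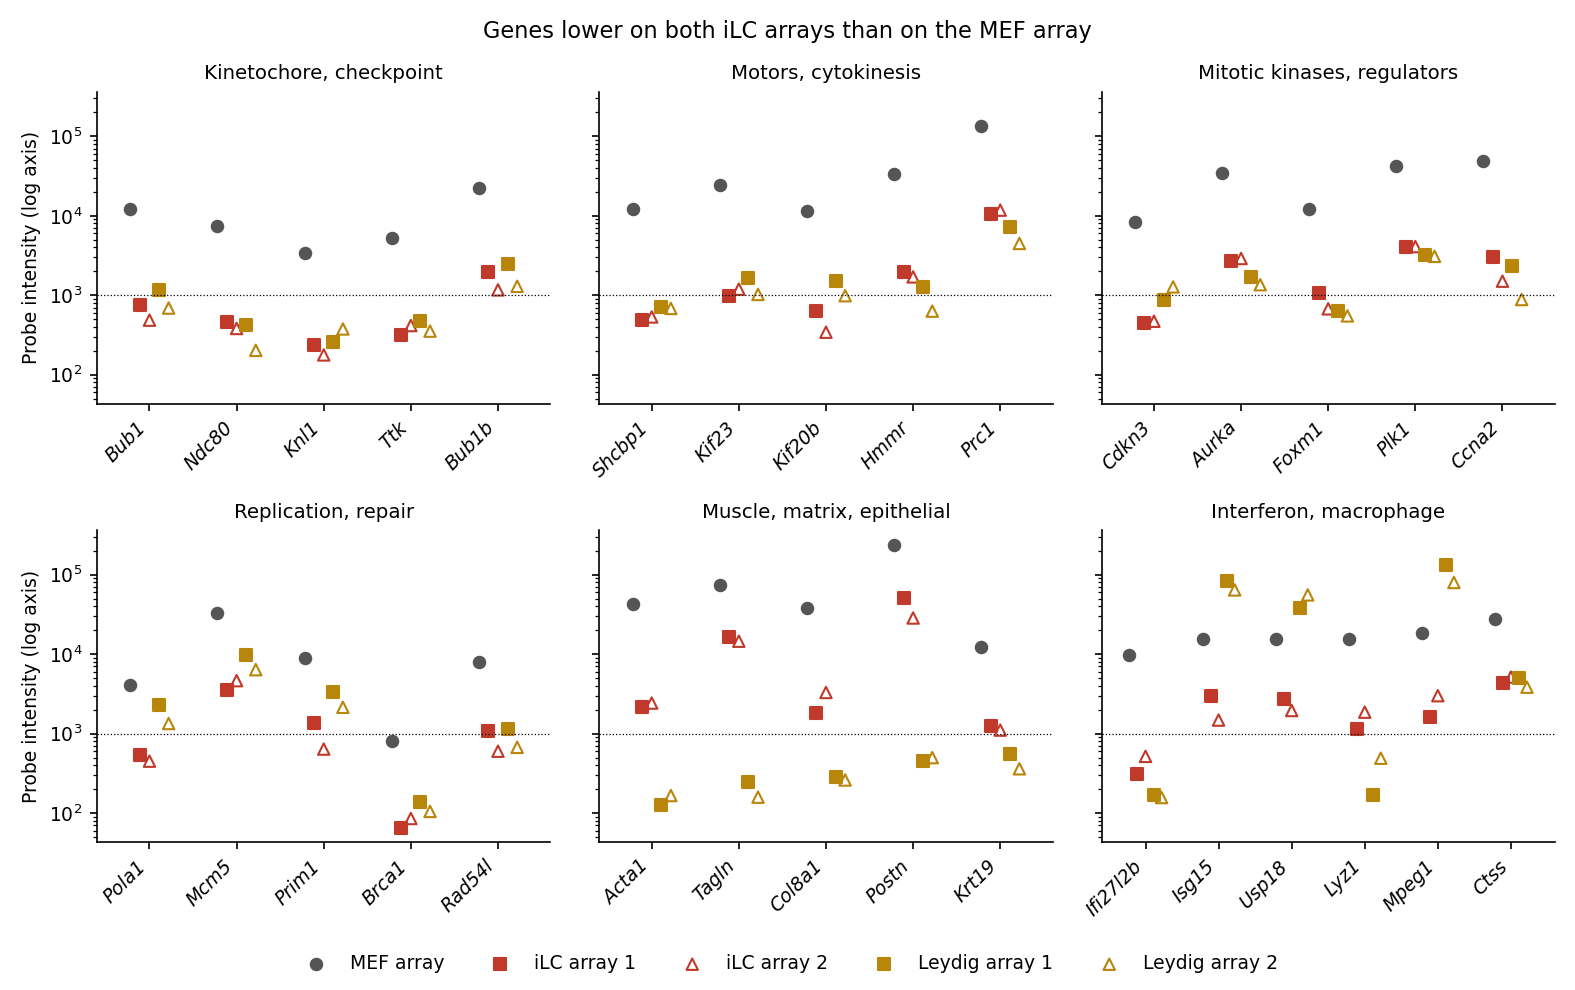
Probe intensity (log axis) of 31 genes lower on both iLC arrays than for MEF, in 6 groups, with the MEF array as grey circles, the iLC arrays in red and the Leydig arrays in gold (filled squares for array 1, open triangles for array 2); the dotted line is 1000. For every gene shown both red symbols lie under the grey one; the gold symbols lie under the grey one for the division genes and above it for Isg15, Usp18 and Mpeg1.

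Promoters of many cell division genes carry the cell cycle genes homology region, a short element read by the MuvB complexes. Its core TTTGAA was sought on both strands of the RefSeq promoter windows (GRCm38.p6, 250 bases before to 50 after each start), which existed for 14967 of the 19084 genes, and any of a gene's windows could count. It was present for 2452 of the 14967 genes (16.4%). Among the called lower genes it was present for 25 of the 43 with a window (58.1%), and among the called higher genes for 7 of 43 (16.3%). In the 3 mitotic lists it was present for 35 of 55 (63.6%). Within 50 bases of the start, a window chosen after the first counts were seen, it was present for 644 genes of all (4.30%), 20 of the 43 called lower (46.5%) and 4 of the 43 called higher (9.30%). The calls were on these same arrays, and a match of letters is not a binding site. The promoters of 4 called lower genes that hold the core show how it lies near the start, 5′ to 3′ on the gene's strand, with the core or its reverse complement in capitals. Kif23 (chr9:61946750-61947049, minus strand) has it at base 3 of the transcript, Ndc80 (chr17:71526808-71527107, minus strand) at base 30 in the reverse orientation, Aurka (chr2:172370521-172370820, minus strand) at base 33 and Plk1 (chr7:122159185-122159484, plus strand) at base 31.
Kif23: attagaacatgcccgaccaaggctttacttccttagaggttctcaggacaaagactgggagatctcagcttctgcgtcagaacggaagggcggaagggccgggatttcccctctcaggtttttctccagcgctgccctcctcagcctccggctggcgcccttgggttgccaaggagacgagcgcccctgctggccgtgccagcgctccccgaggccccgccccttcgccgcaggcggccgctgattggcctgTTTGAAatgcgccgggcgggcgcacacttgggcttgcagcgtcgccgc
Ndc80: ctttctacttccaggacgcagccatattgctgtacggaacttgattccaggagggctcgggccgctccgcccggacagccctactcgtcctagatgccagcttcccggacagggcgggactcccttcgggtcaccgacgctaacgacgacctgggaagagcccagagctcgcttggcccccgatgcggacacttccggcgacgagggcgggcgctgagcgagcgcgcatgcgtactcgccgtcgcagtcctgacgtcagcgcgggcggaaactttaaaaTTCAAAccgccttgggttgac
Aurka: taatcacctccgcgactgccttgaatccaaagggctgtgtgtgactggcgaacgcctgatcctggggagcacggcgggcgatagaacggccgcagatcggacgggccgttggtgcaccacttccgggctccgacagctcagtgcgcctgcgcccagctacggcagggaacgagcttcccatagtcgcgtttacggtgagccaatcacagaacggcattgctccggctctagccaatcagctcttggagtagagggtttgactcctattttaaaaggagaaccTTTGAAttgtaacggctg
Plk1: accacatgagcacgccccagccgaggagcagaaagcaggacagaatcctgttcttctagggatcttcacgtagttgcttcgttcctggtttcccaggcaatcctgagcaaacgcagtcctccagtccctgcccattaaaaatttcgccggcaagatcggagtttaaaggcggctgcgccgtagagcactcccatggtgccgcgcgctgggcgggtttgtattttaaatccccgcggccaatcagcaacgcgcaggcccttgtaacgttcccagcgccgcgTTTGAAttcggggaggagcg

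Genes of DNA replication and repair were lower by less, and few of them were called. Of 27 replication genes, 0 were called and 9 passed the fold rule, all lower, with a median of -1.84 and both iLC arrays below MEF for 25. Pola1, the catalytic subunit of DNA polymerase alpha, read 4040.2 for MEF and 531 and 451 for iLC, and Mcm5, a subunit of the replicative helicase, read 33305 for MEF and 3538 and 4646 for iLC. Their differences were -3.00 ± 0.45 and -3.03 ± 0.45, with adjusted p of 0.0607 and 0.0580. Of 14 repair genes, 1 was called and 4 passed the fold rule, with a median of -1.96. The called gene was Brca1, a factor of homologous recombination, which read 803 for MEF and 65.3 and 85.7 for iLC (-3.17 ± 0.40, adjusted p = 0.0396). Its MEF reading was under 1000 and its iLC readings lay near the low end. Esco2, which acetylates cohesin in S phase, was also called, at 1841 for MEF and 76.6 and 122 for iLC, readings that likewise lay near the low end. Pif1, a DNA helicase, read 8144 for MEF and 661 and 425 for iLC and was called as well. Of 20 genes for G1 cyclins and CDK inhibitors, 0 were called and 2 passed the fold rule, E2f7 and E2f8, repressors of the E2F family, both lower, and the list's median was -0.74.

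Of 18 p53 target genes, 0 were called, 1 passed the fold rule, and both iLC arrays lay above MEF for 16, with a median of 0.52. Perp, a desmosomal p53 target, read 1351 for MEF and 11187 and 24871 for iLC (3.61 ± 0.58, adjusted p = 0.0655). Gadd45a, a growth arrest gene, read 10206 for MEF, 101261 and 102953 for iLC and 10602 and 21421 for Leydig cells (3.32 ± 0.51, adjusted p = 0.0607). Both iLC readings for Gadd45a were about the same and far above the other 3 arrays, yet it missed the test. Among 22 genes of the amino acid and unfolded protein responses, Trib3 and Ddit3, both induced by ATF4, passed the fold rule, with differences of 2.44 and 2.11, and 0 were called.

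Contractile, matrix and epithelial genes gave few calls. Acta1, skeletal muscle actin, read 42869 for MEF, 2141 and 2427 for iLC and 128 and 166 for Leydig cells (-4.22 ± 0.39, adjusted p = 0.0281). Myod1, Myog, Myf5 and Myf6, the factors that define skeletal muscle, read at most 2323 on any of the MEF and iLC arrays, and Acta1 was the only one of 9 skeletal muscle markers to pass either rule. The 17 smooth muscle contraction genes had a median of -1.25 on iLC array 1 and -0.89 on iLC array 2, with both below MEF for 14. None was called, and Tagln and Lmod1, an actin-binding protein and a leiomodin of smooth muscle, passed the fold rule at -2.24 and -2.61. Acta2, smooth muscle actin, read 466436 for MEF and 493313 and 439352 for iLC on its brightest probe, while its other probe gave -2.09, so the probes disagree.

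Among 44 collagens the median was -0.17, close to that of all genes, and its sign turned to positive with quantile normalization. Col8a1, a short-chain collagen of vessel walls, was the 1 called, at 37894 for MEF and 1825 and 3299 for iLC (-3.94 ± 0.47, adjusted p = 0.0383). Col6a3 passed the fold rule at -2.92. Of 40 matrix glycoproteins, 4 were lower and 1 higher by the fold rule. Postn, periostin, read 239164 for MEF and 50186 and 28536 for iLC (-2.66 ± 0.46, adjusted p = 0.0752), and Spon2, a spondin, read 2345 for MEF and 45628 and 23927 for iLC (3.81 ± 0.83, adjusted p = 0.11). Krt19, a keratin of simple epithelia and mesothelium, was called, at 12216 for MEF and 1249 and 1109 for iLC (-3.36 ± 0.42, adjusted p = 0.0396). Krt7 passed the fold rule at -2.65, and the other 18 of the 20 epithelial genes passed neither rule. Both iLC arrays lay above MEF for 12 of the 20 and below it for 7, with a median of 0.23, so the 2 keratins do not stand for the list.

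Further lower genes lay outside these lists. Wasf2, a WAVE complex subunit that drives actin branching, read 40767 for MEF and 2164 and 1462 for iLC (-4.51 ± 0.44, adjusted p = 0.0281). Angptl7, a secreted angiopoietin-like protein, read 7274 for MEF and 557 and 425 for iLC (-3.86 ± 0.44, adjusted p = 0.0334). Ankrd37, a target of hypoxia-inducible factor, read 1756 for MEF and 123 and 183 for iLC. It was the 1 call among 19 glycolysis and hypoxia genes, which had a median of -0.81 with both iLC arrays below MEF for 14. H19, an imprinted RNA of fetal tissues, read 251981 for MEF, 23246 and 9273 for iLC and 1048 and 2287 for Leydig cells, and was not called (-4.10 ± 0.70, adjusted p = 0.0742).

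Immune genes were called in both directions. Of 27 genes of the interferon response, 1 was called lower, 4 passed the fold rule, all lower, and both iLC arrays lay below MEF for 24, with a median of -0.92. Ifi27l2b read 9775 for MEF, 308 and 518 for iLC and 168 and 157 for Leydig cells (-4.56 ± 0.44, adjusted p = 0.0281). Isg15, a ubiquitin-like protein made in response to interferon, read 15566 for MEF, 2986 and 1483 for iLC and 83513 and 64362 for Leydig cells. Usp18, which removes ISG15 from proteins, read 15318 for MEF and 2714 and 1957 for iLC. Both missed the test, with differences of -2.88 ± 0.52 and -2.72 ± 0.44. Ifitm6, of the interferon-induced transmembrane family, was called, at 1902 for MEF and 122 and 115 for iLC (-3.84 ± 0.39, adjusted p = 0.0281).

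Macrophage markers were lower on both iLC arrays for 19 of 20 genes, with a median of -1.57 (-2.06 on iLC array 1 and -1.03 on iLC array 2). None was called, and Lyz1, Mpeg1 and Ctss, a lysozyme, a pore-forming protein and a lysosomal protease, passed the fold rule, but a second Mpeg1 probe gave -0.26. The summed level of the 20 was 354232 for MEF and 81282 and 162675 for iLC. Fcer1g, a receptor signalling chain, read 51309.8 for MEF and 5862 and 12949 for iLC, and Spi1, the factor that defines myeloid cells, read 5236 for MEF and 5278 and 7252 for iLC. The part of macrophages in the interferon and chemokine differences was not tested.

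Cytokines and chemokines included genes called in both directions. Of 38 genes, 4 were called higher and 1 lower, and 8 and 2 passed the fold rule. Il6, the interleukin of acute inflammation, read 743 for MEF, 30289 and 37346 for iLC and 145 and 118 for Leydig cells (5.47 ± 0.39, adjusted p = 0.0168). Both iLC readings lay far above the other 3 arrays. Cxcl1, a neutrophil attractant, read 1613 for MEF and 42279 and 45389 for iLC (4.75 ± 0.56, adjusted p = 0.0383), and 9404 and 22186 for Leydig cells. Ccl17, a ligand of CCR4, read 907 for MEF and 48780.1 and 18639 for iLC (5.03 ± 0.67, adjusted p = 0.0474). Tnfsf11, the osteoclast factor RANKL, read 1711 for MEF and 32464 and 23150.1 for iLC (3.99 ± 0.40, adjusted p = 0.0281). The called lower gene, named after its values were seen, was Ccl3, a macrophage inflammatory protein, at 4965 for MEF and 333 and 602 for iLC (-3.42, adjusted p = 0.0495). Ccl4, a related chemokine, was not called, at 5876 for MEF and 238 and 799.8 for iLC. Cxcl5, Ccl11 and Il1a passed the fold rule upward, with differences of 3.84, 4.05 and 2.75.

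A few genes for secreted peptides and neurofilaments were called higher. Of 26 genes of the neuropeptide and neuronal cytoskeleton list, 4 were called higher (the peptides Pyy and Gal and the neurofilaments Nefl and Nefm), 6 passed the fold rule, all higher, and both iLC arrays lay above MEF for 18. Pyy, peptide YY, read 654 for MEF, 53158 and 44677 for iLC and 339.5 and 319 for Leydig cells (6.18 ± 0.38, adjusted p = 0.00891). Gal, galanin, read 1452 for MEF, 49852 and 32859 for iLC and 1424 and 2124 for Leydig cells (4.79 ± 0.46, adjusted p = 0.0281). For both peptides the iLC arrays stood far above the other 3. Sct, secretin, a gut hormone outside the list, was also called, and read 406 for MEF, 35994 and 19525 for iLC and 12572 and 8687 for Leydig cells (5.97 ± 0.51, adjusted p = 0.0281). Nefl and Nefm, the light and medium neurofilament proteins of axons, were called too. Nefl read 233 for MEF and 7355 and 29258 for iLC (5.88 ± 0.78, adjusted p = 0.0461). Its difference was 5.47 with a floor, that is with low values raised to each array's own 20th percentile over named probes. Nefm read 733 for MEF and 20955 and 51053 for iLC (5.45 ± 0.59, adjusted p = 0.0330). For both neurofilaments iLC array 2 was the higher of the pair. Vgf and Penk, a granin-like precursor and proenkephalin, passed the fold rule at 3.65 and 3.07 and were not called.

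Of the 8 neuron markers, Nefl and Nefm were called, Snap25 passed the fold rule, and the other 5 passed neither rule. Both iLC arrays lay above MEF for 6 of the 8 and below it for 1, with a median of 0.93 against -0.11 for all genes. Rbfox3 read 897 for MEF and 1018 and 1143 for iLC, Tubb3 read 9952 for MEF and 9117 and 21103 for iLC, and Syt1 was lower on both iLC arrays. Nefh read 905 for MEF and 1444 and 1915 for iLC, and Stmn2 read 871 for MEF and 1933 and 1592 for iLC. Snap25, a synaptic fusion protein, was higher at 25072 and 8223 against 929, without a call (3.93, adjusted p = 0.089). The 8 markers summed to 15731 for MEF and 67482 and 114799 for iLC. The part of such cells in the higher readings of the peptides was not tested.

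A few antimicrobial genes of mucosal surfaces were among those called higher. Of 15 genes of this list, 2 were called higher and 4 passed the fold rule, all higher. Both iLC arrays lay above MEF for 6 of the 15 and below it for 5. The list's median was 0.11, with -0.08 on iLC array 1 and 0.86 on iLC array 2. Defb45, a beta-defensin, read 128 for MEF and 13316 and 9348 for iLC (6.28 ± 0.53, adjusted p = 0.0281). Dmbt1, a scavenger receptor protein of epithelial secretions, read 247 for MEF and 12714 and 32837 for iLC (6.28 ± 0.60, adjusted p = 0.0281). Both MEF readings lay under that array's 20th percentile over genes. With the floor at each array's 20th percentile over named probes, the differences were 5.07 and 5.95. Lcn2, a lipocalin that binds bacterial siderophores, read 514 for MEF, 20413 and 20604 for iLC and 41218 and 233838 for Leydig cells (5.27 ± 0.94, adjusted p = 0.079). Its iLC readings were nearly equal, but its Leydig readings differed widely and enter the SE, and it missed the test. Defb19, a defensin of the male tract, was called outside the list, at 152 for MEF, 9137 and 7189 for iLC and 72091 and 122066 for Leydig cells (5.59 ± 0.47, adjusted p = 0.0281), or 4.61 with the floor.

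Alcohol dehydrogenases oxidise ethanol and retinol, and 2 of the 28 genes for alcohol, aldehyde and retinoid metabolism were called. Adh1 read 2128 for MEF, 187002 and 129174 for iLC and 379195 and 180778 for Leydig cells (6.18 ± 0.55, adjusted p = 0.0281). Adh7 read 1361 for MEF and 161970.0 and 59148 for iLC (6.15 ± 0.68, adjusted p = 0.0334), with 1525 and 2678 for Leydig cells. Crabp2 and Aldh1a7, a retinoic acid carrier and an aldehyde dehydrogenase, passed the fold rule at 2.79 and 2.57. The list's median was 0.54. Core motifs of GATA factors (AGATAA) and of NR5A1 (CAAGGTCA), searched on both strands of the same windows, were present for 1503 (10.0%) and 212 (1.42%) of the 14967 genes. Among the 43 called higher genes with a window, the GATA core was present for 10 (23.3%) and the NR5A1 core for 0, and among the 152 with a window that were higher by the fold rule they were present for 21 (13.8%) and 2 (1.32%). Adh1 (chr3:138277335-138277634, plus strand) is shown because it holds the GATA core, in capitals, beginning 150 bases before the start.
Adh1: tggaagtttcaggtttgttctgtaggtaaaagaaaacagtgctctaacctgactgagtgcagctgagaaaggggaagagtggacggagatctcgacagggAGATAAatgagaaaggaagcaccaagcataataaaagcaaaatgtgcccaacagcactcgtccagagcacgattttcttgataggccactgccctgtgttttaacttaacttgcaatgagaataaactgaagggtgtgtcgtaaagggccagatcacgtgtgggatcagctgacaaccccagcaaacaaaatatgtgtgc

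Glutathione buffers reactive oxygen and conjugates foreign compounds. Of 31 glutathione and antioxidant genes, 1 was called and 7 passed the fold rule, all higher, and both iLC arrays lay above MEF for 22, with a median of 1.07 against -0.11 for all genes. Gsta3, a glutathione transferase that also serves steroid isomerisation, read 926 for MEF, 19614 and 12023 for iLC and 151867 and 209494 for Leydig cells (4.03 ± 0.47, adjusted p = 0.0355). Gclc, the rate-limiting enzyme of glutathione synthesis, read 2032 for MEF and 14337 and 13336 for iLC (2.76 ± 0.55, adjusted p = 0.0941). Nqo1, Sod3 and Slc7a11, a quinone reductase, an extracellular superoxide dismutase and the cystine transporter, passed the fold rule at 3.03, 2.55 and 2.21. Osgin1, an oxidative stress response gene, read 1216 for MEF and 15514 and 13809.7 for iLC without a call.

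**Figure D4:**
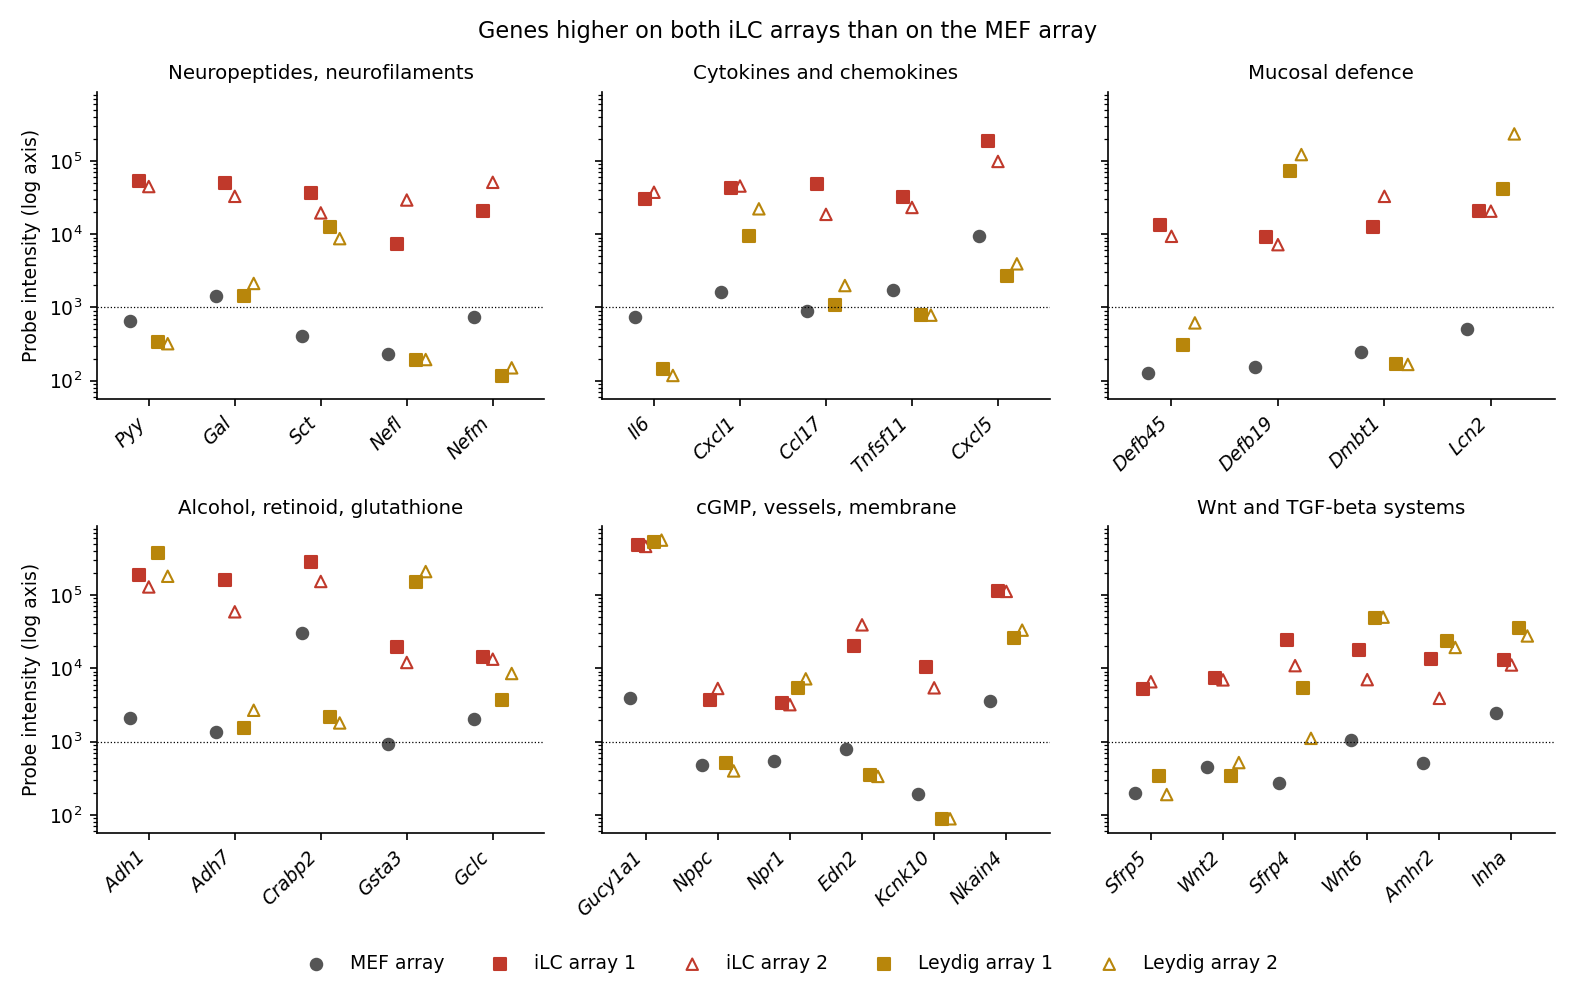
Probe intensity (log axis) of 31 genes higher on both iLC arrays than for MEF, in 6 groups, with the MEF array as grey circles, the iLC arrays in red and the Leydig arrays in gold (filled squares for array 1, open triangles for array 2); the dotted line is 1000. For Pyy, Nefl, Nefm, Dmbt1, Edn2 and Kcnk10 the gold symbols lie under 1000 while the red ones lie above it; for Lcn2, Gsta3 and Wnt6 the gold symbols lie above the red ones.

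Signalling through cyclic GMP gave the largest called difference outside the genes with a reading at the low end of the MEF array. Gucy1a1, the alpha subunit of the nitric oxide receptor guanylyl cyclase, read 3977 for MEF, 478439 and 462000.0 for iLC and 538454 and 562914 for Leydig cells (6.88 ± 0.37, adjusted p = 0.00517). The iLC readings were close to one another and near those of the Leydig arrays, and the MEF array was the only low one. Nppc, C-type natriuretic peptide, read 475 for MEF and 3741 and 5310.5 for iLC (3.19 ± 0.42, adjusted p = 0.0461), with 514 and 398 for Leydig cells. Npr1, the receptor for atrial natriuretic peptide, passed the fold rule at 2.54. The other 15 of the 18 genes in the list passed neither rule, and its median was 0.26.

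Further called genes act at the cell surface or in signalling. Edn2, endothelin 2, a vasoconstrictor peptide, read 790.1 for MEF, 19946 and 39259 for iLC and 345 and 335 for Leydig cells (5.12 ± 0.50, adjusted p = 0.0281). Kcnk10, a background potassium channel, read 193 for MEF and 10499 and 5421 for iLC (5.18 ± 0.49, adjusted p = 0.0281; 4.51 with the floor), and was the only one of 128 channel genes called. Nkain4, a partner of the sodium pump, read 3549 for MEF, 115247 and 112352 for iLC and 25717 and 33236 for Leydig cells, and its other probe gave 5.16 beside the 5.00 ± 0.39 of the probe used (adjusted p = 0.0241). Gng13, a G protein gamma subunit of taste cells, read 399.6 for MEF and 8402 and 15210.1 for iLC. Slc12a8, a solute carrier, was the only one of 319 called, at 789 for MEF and 5162 and 6056 for iLC. Over all genes 0.278% were called higher. By the fold rule 1.56% of the channel genes and 1.25% of the solute carriers were higher, near the 1.12% of all genes. These counts are therefore not a result about either list. Abca1, the cholesterol exporter induced by LXR, read 6107 for MEF, 99372 and 137554 for iLC and 206191 and 152879 for Leydig cells (4.26 ± 0.43, adjusted p = 0.0281).

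Wnt proteins are secreted ligands of Frizzled receptors, and SFRPs bind and sequester them. Of 54 genes of this system, 2 were called higher, 5 passed the fold rule, all higher, and the median was 0.14. Sfrp5 read 201 for MEF and 5265 and 6556 for iLC (4.76 ± 0.47, adjusted p = 0.0281; 4.15 with the floor), with 337 and 189 for Leydig cells. Wnt2 read 455 for MEF and 7332 and 6959 for iLC (3.93 ± 0.42, adjusted p = 0.0330). Sfrp4, Wnt6 and Sfrp1 passed the fold rule at 5.85, 3.41 and 3.03 without a call, and for all 3 iLC array 1 was the higher. Of 43 genes of the TGF-beta, BMP and activin systems, 0 were called and 4 passed the fold rule, all higher. Inha, the inhibin alpha subunit, read 2488 for MEF and 12896 and 11106 for iLC (2.26 ± 0.39, adjusted p = 0.0752), and Bmp6 and Gdf10, 2 ligands, passed at 2.58 and 2.50. Amhr2, the receptor of anti-Müllerian hormone, read 515 for MEF, 13544 and 3896 for iLC and 23610.1 and 19288 for Leydig cells (3.78 ± 0.73, adjusted p = 0.0902). Its promoter (chr15:102445117-102445416, plus strand) is shown because it is 1 of the 2 among genes higher by the fold rule that hold the NR5A1 core, in capitals, beginning 232 bases before the start.
Amhr2: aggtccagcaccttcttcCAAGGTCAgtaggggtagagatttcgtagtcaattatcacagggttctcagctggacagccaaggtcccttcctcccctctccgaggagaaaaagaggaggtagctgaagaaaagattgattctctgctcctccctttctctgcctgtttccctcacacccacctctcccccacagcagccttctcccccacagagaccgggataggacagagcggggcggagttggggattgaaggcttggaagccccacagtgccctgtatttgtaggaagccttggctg

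Many genes that differed by at least 4-fold on both iLC arrays did not reach the test, some of them by far. Among those lower, Uhrf1, which carries DNA methylation through replication, read 27884 for MEF and 1718 and 1037 for iLC, with 5377 and 1787 for Leydig cells (-4.37 ± 0.70, adjusted p = 0.0657). Tacc3, a spindle-stabilising protein, read 35578 for MEF and 3270.5 and 3274 for iLC. Exo1, a repair exonuclease, read 4376 for MEF and 287 and 356 for iLC, but its second probe gave -0.76. Slc38a4, an amino acid transporter, read 9335 for MEF and 617 and 1009 for iLC. Itga4, an integrin alpha subunit, read 3958 for MEF and 285 and 675 for iLC, while Itgax, an integrin of dendritic cells, read 560.1 for MEF and 4912 and 3621 for iLC. The small matrix proteoglycans Aspn and Ogn were lower at -2.67 and -2.24, and Mfap4 and Thbs4, a microfibril protein and a thrombospondin, at -2.66 and -2.51. Among those higher, Cd55, which protects cells from complement, read 1685 for MEF, 23247 and 12361 for iLC and 1844 and 410.3 for Leydig cells (3.32 ± 0.88, adjusted p = 0.162). Cited4, a coactivator of CBP, read 329 for MEF and 7916 and 5822 for iLC. Apoc1, an apolipoprotein, read 708 for MEF and 4373 and 3627 for iLC, and stood beside Abca1 as the other gene of 11 LXR and lipid export genes past the fold rule. Fgf2, a fibroblast growth factor, read 827 for MEF and 3420.2 and 4581 for iLC. Of the immediate early genes, Nr4a2 was higher at 2.12 and Egr2 lower at -2.17. In each of these genes both iLC arrays lay on the same side of MEF by at least 4-fold. Those far from the test included Aspn, Egr2, Ogn and Itgax, with limma adjusted p of 0.227, 0.277, 0.399 and 0.465. The test pools the spread of the Leydig pair, and for these genes the Leydig arrays differed widely. Leydig cells read 366 and 79.0 for Aspn, 1247 and 5283 for Egr2, 60426 and 7238 for Ogn and 377 and -26.9 for Itgax. A large p here is therefore not a measure of the MEF and iLC arrays alone.

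Several of the largest differences rested on a MEF reading at the bottom of that array. Mrpl36 and Rchy1, a mitochondrial ribosomal protein and a ubiquitin ligase, both read 49.1 for MEF, next to its minimum of 48.0. On the other 4 arrays Mrpl36 read 21781 to 39674 and Rchy1 read 19911 to 26647. Atp5b, the catalytic subunit of ATP synthase, read 69.5 for MEF and 11251 to 25763 on the others, and N4bp1, an RNA-degrading protein of innate immunity, read 68.5 and 7476 to 13705. With the floor the differences fell from 8.82 to 6.47 for Mrpl36, from 8.35 to 6.00 for Rchy1, from 7.09 to 5.13 for Atp5b and from 6.69 to 4.72 for N4bp1. Mycbp2, a ubiquitin ligase, read 48 for MEF and 4853, 5813 and 5165 on 3 others but -18.5 on Leydig array 2. Of the 176 genes under the 1st percentile of the named probes for MEF (86.9), these 5 read at least 3000 on both iLC arrays. By the lower of the iLC readings the next was Meox1, at 404 and 672. Another 2 genes reached 3000 on 1 iLC array only: Top2b read -23.6 and 24572 for iLC, and Celf1 read -38.3 and 6354, so for both genes iLC array 1 was also at its low end. Meox1, Top2b and Celf1 were named after their values were seen. No gene with 3000 or more for MEF and 1 iLC array was under the 1st percentile on the other iLC array (0 genes for each), a count that leaves out such genes as Top2b and Celf1. Without the 176 genes the test called 55 genes higher and 61 lower. Of the 89 genes for the respiratory chain and ATP synthase, Atp5b was the only call and Cox6b2, a testis form of a cytochrome oxidase subunit, the only other past the fold rule.

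In 11 further lists no gene was called and none passed the fold rule. These were the aldo-keto reductases, matrix proteases, cartilage and bone, adipocyte, lysosome, ribosomal protein, cadherin, IGF, Notch and hedgehog, circadian and gonadal regulator lists. The 8 reference genes measured likewise passed neither rule, with a median of -0.35. The 16 genes of the IGF system had a median of -0.32 and the 42 ribosomal protein genes one of -0.28. The cyclic AMP, complement, proteoglycan, endothelial, integrin, guidance, growth factor receptor, immediate early, prostaglandin and imprinted lists each held 1 to 3 genes past the fold rule and no call. For the cyclic AMP list these were Pde4b and Adcy2, at 2.86 and 2.38, and the second Pde4b probe gave 0.01. For the prostaglandin list they were Ptgds, Ptgfr and Hpgds, at 6.02, 3.18 and -2.24. Ptgds read 12887 and 58864 for iLC and 2214 and 235608 for Leydig cells, so the arrays of each pair differed widely, and its SE was 2.48.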

How the data were processed

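RNA from 5 samples was hybridised to single-colour arrays. The authors deposited probe intensities on a linear scale; how these were background-corrected or normalized, and with which software, is not stated in the labels or headers. Values below 0 were set to 0, 16 was added and log2 taken. Of 26423 probes, 21876 carried 1 gene symbol and 4547 did not, giving 19084 genes, 2424 of them with several probes. The probe with the highest mean log2 value stood for its gene; this was settled after the choice by linear mean had given 54 higher and 55 lower calls. limma 3.58.1 in R 4.3.3 fitted 1 mean per group over all 5 arrays, with 2 residual degrees of freedom, and was tested on simulated data. Calls used a two-sided adjusted p under 0.05 (Benjamini-Hochberg).

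The members and gene lists were chosen with earlier results of these data known. Named genes are the 25 called genes and the 15 uncalled genes past the fold rule, in each direction, with the largest smaller-of-2 difference (predicted genes left out), up to 4 called and 4 fold-rule members per list, and the marker genes; not all were printed. A histone gene list matched no probe symbol and was not used. Alternatives changed the arrays, intensity trend, block, pseudocount, floor, scaling, probe choice and thresholds.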

Additional observations from a re-analysis of the deposited data

How the results depend on the processing

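Against 53 higher and 54 lower calls, limma gave 117 and 136 with an intensity trend, 124 and 166 with a pseudocount of 64, 106 and 125 with a filter on dim genes, 127 and 166 after raising low values to the 20th percentile, 142 and 238 with median centring, 165 and 204 with quantile normalization, 7 and 0 with a pseudocount of 4 (998 and 1788 at an unadjusted p under 0.05) and 6 and 0 with the low ends aligned (1489 and 1223 unadjusted). Averaging probes gave 52 and 50. With only the MEF and iLC arrays there were 0 and 0 calls (1043 and 1843 unadjusted), and leaving out each iLC or Leydig array in turn gave 0 and 0 in all 4 fits, with 777 to 1043 higher and 1225 to 2087 lower unadjusted; fewer arrays leave less residual freedom. The replicate numbers share only a label (correlation of deviations 0.056), and with the replicate block, which leaves 1 residual degree of freedom, calls were 444 and 909 with an infinite prior df, against 0 and 0 with the numbers crossed. The fold rule's 214 and 244 became 796 and 920 at 2-fold, 72 and 77 at 8-fold, and 327 to 354 higher and 341 to 369 lower with 1 iLC array left out. Dmrt1, at -0.07, became 0.24 with the low ends aligned and 0.079 with quantile normalization, and ranged from -0.24 to 0.10 with 1 array left out. Nr5a1, at 0.06, became -0.0018 with median centring and ranged from -0.13 to 0.25. The cause was not tested for these changes. Alternatives chosen after seeing the data were the crossed numbers, the linear-mean probe (54 and 55) and leaving out genes under the MEF 1st percentile (55 and 61). No group held the 4 arrays needed to test for a sample standing apart, and readings near the low ends limit what can be measured.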
